A study of Mus musculus with 18 samples.

Results

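The replication-dependent histone genes encode the bulk of the H1, H2A, H2B, H3 and H4 proteins that package newly copied DNA. Their members were taken as the protein-coding genes of GENCODE release M21 (mouse genome mm10) whose symbol starts with Hist1h, Hist2h, Hist3h or Hist4h, which gave 67 of 21938 protein-coding genes. They comprised 6 H1, 18 H2A, 18 H2B, 12 H3 and 13 H4 genes. Chromatin accessibility had been measured by ATAC-seq, in which the Tn5 transposase cuts and tags exposed DNA. Macrophages grown from the bone marrow (BMDMs) of wild type male C57/BL6 mice of 6 to 8 weeks were used. The 9 groups of 2 libraries all had DMSO, a solvent, for 1 h. Of these, 1 group then stayed untreated, and the others were stimulated for 30 min, 1 h, 2 h or 4 h with 10 ng/mL LPS, a bacterial cell wall component, or with 10 ng/mL IL-4, a cytokine. How many animals each library came from is not given in the sources used here.

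The deposited data are 3 lists that pool these 18 libraries: 82391 reference peaks, 59617 extended regions and 84660 summits. No list has a column per library, so that stimuli, times and replicates could not be compared, the depth is unknown and every value below describes a single catalog, with no replicate error and no test. The score of a summit is a whole number between 102 and 2781 whose scale the authors did not state. Of 8 macrophage marker genes, 8 had a reference peak at most 1000 bp from a start site, among them Spi1, Cd68, Lyz2 and Adgre1. Among markers of other cells, 0 of 4 T cell, 1 of 3 B cell, 1 of 4 neutrophil, 2 of 3 fibroblast and 0 of 3 epithelial genes had one.

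Replication-dependent histone genes are short, lie in clusters and mostly lack introns. Their mRNAs end in a conserved stem-loop in place of a poly(A) tail and accumulate in S phase, when DNA is copied. In the nucleus the clusters are gathered in the histone locus body, where Npat activates transcription and Slbp binds the stem-loop. In the annotation used here 62 of 67 members had a single exon in every transcript, and the coding length had a median of 393 bp.

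The sequences between a divergent H2A and H2B gene come first, because 1 peak often covered both start sites. They are shown on the plus strand of mm10 (RefSeq sequence of GRCm38.p6). Capitals mark TATAAA, the box that places the start of transcription. They also mark the letters read by the factor NF-Y, which are CCAAT. A further motif in capitals is ATTTGCAT, the octamer bound by Oct-1, the product of Pou2f1. Reverse complements are marked too. The first stretch, of 250 bp at chr13:23683949-23684198, holds all of the bases between the start sites of Hist1h2ac and Hist1h2bc. The second, of 300 bp at chr13:23934159-23934458, is the middle of the 305 bp between Hist1h2ba and Hist1h2aa, genes known from germ cells, which had no peak.
Hist1h2ac and Hist1h2bc: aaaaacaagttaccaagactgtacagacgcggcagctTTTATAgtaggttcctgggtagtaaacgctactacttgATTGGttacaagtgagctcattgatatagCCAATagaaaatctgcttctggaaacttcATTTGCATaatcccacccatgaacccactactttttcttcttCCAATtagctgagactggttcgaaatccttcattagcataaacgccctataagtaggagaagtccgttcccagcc
Hist1h2ba and Hist1h2aa: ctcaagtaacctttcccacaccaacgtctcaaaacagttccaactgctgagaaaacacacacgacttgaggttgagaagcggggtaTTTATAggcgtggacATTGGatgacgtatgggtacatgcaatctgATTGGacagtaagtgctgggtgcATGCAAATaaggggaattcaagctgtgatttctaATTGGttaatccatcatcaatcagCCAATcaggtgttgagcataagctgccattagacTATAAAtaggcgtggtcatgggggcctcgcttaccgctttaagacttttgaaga
Both stretches hold all of these letters, and only the first lay under a peak.

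The H4 and H1 promoters follow, because the letters CGGAC and AAACACA were most frequent in these types. The 150 bp before the annotated start site are given on the gene strand. Capitals mark the TATA box and CCAAT letters, and in addition CGGAC (part of the site of Hinfp, which activates H4 genes) for H4 and AAACACA (the H1 box) for H1. Hist1h4c (chr13:23698455-23698604) had the highest and Hist1h4j (chr13:21734914-21735063) the lowest score of the H4 genes. Hist1h1e (chr13:23622559-23622708) had the highest score of the H1 genes, and Hist1h1t (chr13:23695664-23695813), which encodes the testis H1, had no start site peak.
Hist1h4c: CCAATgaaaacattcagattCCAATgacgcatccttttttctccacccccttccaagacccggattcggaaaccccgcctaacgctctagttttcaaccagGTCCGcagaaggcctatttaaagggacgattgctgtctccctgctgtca
Hist1h4j: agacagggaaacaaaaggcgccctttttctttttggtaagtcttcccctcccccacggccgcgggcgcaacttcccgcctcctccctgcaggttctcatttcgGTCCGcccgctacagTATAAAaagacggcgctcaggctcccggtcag
Hist1h1e: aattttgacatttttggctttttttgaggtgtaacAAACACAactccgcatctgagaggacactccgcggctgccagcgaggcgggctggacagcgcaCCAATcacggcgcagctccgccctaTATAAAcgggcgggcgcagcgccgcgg
Hist1h1t: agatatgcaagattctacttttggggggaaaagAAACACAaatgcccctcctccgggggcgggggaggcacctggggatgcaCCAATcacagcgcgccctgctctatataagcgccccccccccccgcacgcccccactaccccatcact

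A start site peak, meaning a reference peak at most 1000 bp from any annotated start site, was found at 59 of 67 members. This is 88.1%, beside 56.5% of all protein-coding genes. Neighbouring members share peaks and are not independent, so that no interval is given. A peak covered a start site itself in 56 members, or 83.6%, against 49.7% of all protein-coding genes. A peak overlapped the gene body by at least 1 bp in 59 of 67, against 63.5%. At least 50% of the body was covered in 19 members, and in 56 of all 21938 protein-coding genes, members included. This count depends on gene length, as reference peaks had a median width of 227 bp. A long gene offers more room for a peak, so short genes were also compared. Of the 48 members of at most 1000 bp, 42 had a peak over the body and 43 a start site peak. The 670 other protein-coding genes of at most 1000 bp had them in 8.06% and 9.55%. These genes were matched by length only. Among the 42 short members with a body peak the median share of the body covered was 41.9%. It was 38.4% among all 96 such protein-coding genes, members included.

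All 12 H3 genes and all 13 H4 genes, which encode the partners of the central tetramer of the nucleosome, had a start site peak. It was found at 15 of 18 H2A genes, 15 of 18 H2B genes and 4 of 6 genes of H1, the linker histone. The 8 members without one fell into 3 kinds. Hist1h1t, Hist1h2ba and Hist1h2aa are known from germ cells, and their nearest peaks lay 1692, 22521 and 22827 bp away. Without these germ cell members the share was 59 of 64. Hist1h1d, encoding a somatic H1, has an annotated body of 7425 bp whose start lay 1372 bp from the nearest peak, but a summit with a score of 1082 lay 33 bp after its start codon. The other 4 were Hist1h2bq, Hist1h2ao, Hist1h2ap and Hist1h2br, with the nearest peak 1158 to 1426 bp away.

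These 4 H2A and H2B genes lie in a stretch that the genome holds in inverted copies. The 6169 bp at chr13:21805612-21811780 are identical to the reverse complement of chr13:21832162-21838330. In these genes 100% of the promoter (250 bp before to 50 bp after the most upstream start site) and of the coding span lay in stretches of 76 bases, the read length, that occur more than once on the primary chromosomes. A read from there has no single position, and how reads with several matches were treated is not given in the sources used here. The promoter of Hist1h2ao (150 bp at chr13:21810315-21810464, gene strand, TATA box, CCAAT and octamer letters in capitals) is shown because its sequence has the CCAAT letters of the other H2A promoters.
Hist1h2ao: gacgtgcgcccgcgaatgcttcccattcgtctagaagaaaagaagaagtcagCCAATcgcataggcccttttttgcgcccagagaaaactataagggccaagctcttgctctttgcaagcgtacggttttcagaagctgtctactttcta
The members whose whole promoter was repeated were these 4, and 0 of 4 had a start site peak. Another 6 members had 66.2% to 93.3% of the promoter in such stretches and a start site peak, and the best summit of 4 of them lay in a stretch found once. They were Hist1h4m and Hist1h4n at the edges of the same copies, with scores of 1431 and 1456, and Hist2h3c2, Hist2h2aa2, Hist2h2aa1 and Hist2h3c1 on chromosome 3, with 1644, 1825, 1955 and 1683. The part of repeated sequence in the missing peaks was not tested. Among the 56 members whose promoter held no repeated stretch, 52 had a start site peak.

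The best score of a member was the highest summit score within 1000 bp of a start site. Over the 59 members it had a median of 1543 and quartiles of 1418 and 1619. Over the 12321 protein-coding genes with such a summit the median was 1456, with quartiles of 1071 and 1799. The scores of the members ran from 664 to 1955, against 121 to 2758. Of the 59 members 58 were at or above the median of all summits, 737, against 89.6% of the protein-coding genes, and 4 reached the upper quartile of the protein-coding genes. Neighbouring members share summits, which enter these counts more than once. With each summit given only to the nearest protein-coding gene, 51 of 58 members (87.9%) were at or above 737, against 87.5% of 11590 protein-coding genes. On that basis the members had a median of 1437, quartiles of 1182 and 1603 and a lowest score of 315, and the protein-coding genes a median of 1406 and quartiles of 1013 and 1773.

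**Figure D1:**
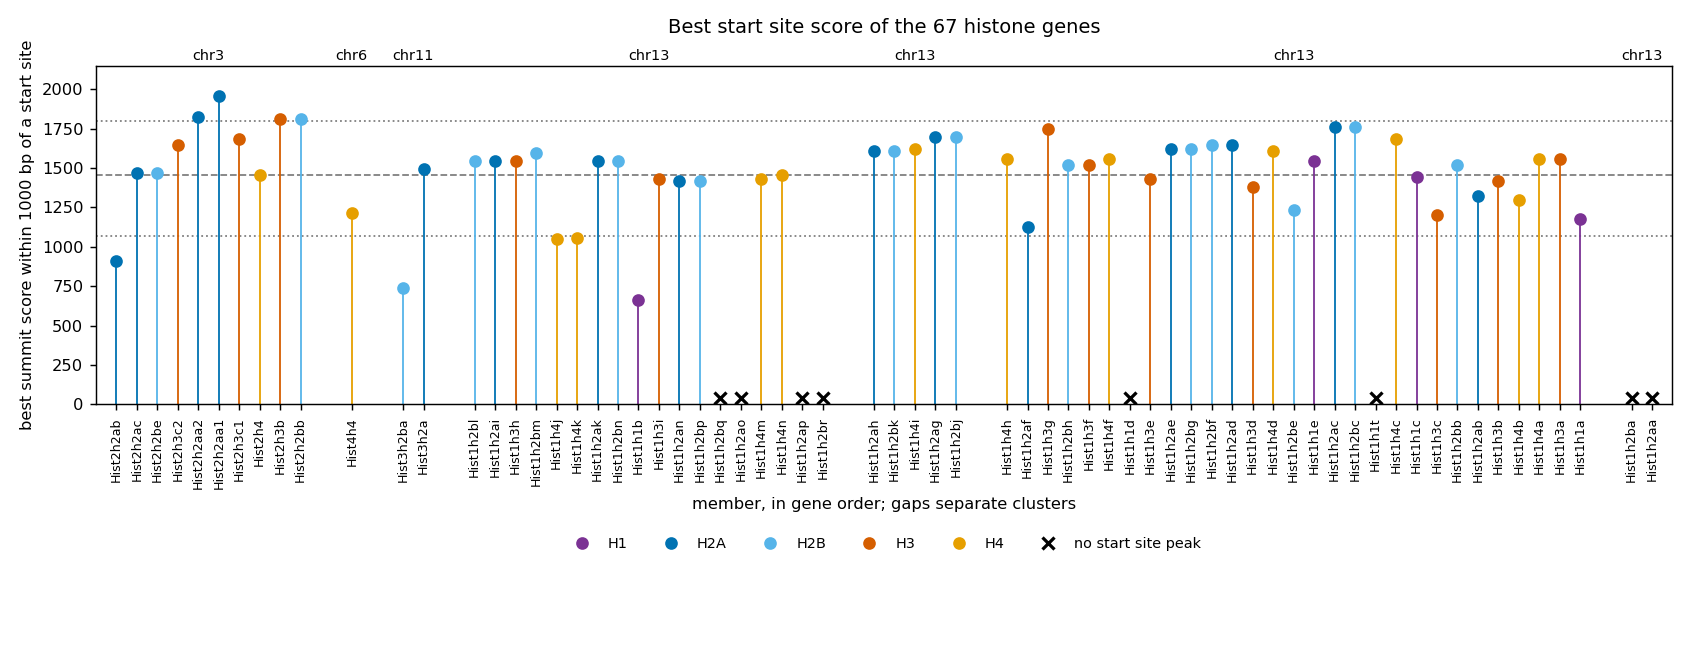
Best summit score within 1000 bp of a start site (vertical axis, scale not stated by the authors) for each of the 67 members in gene order, coloured by histone type, with the chromosome above each cluster. Crosses mark the 8 members without a start site peak, and the grey lines the median (1456, dashed) and quartiles (1071 and 1799, dotted) of all protein-coding genes. The quartiles of the members are 1418 and 1619, and the highest member, at 1955, is on chromosome 3.

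The highest scores were those of the H2A genes Hist2h2aa1 (1955) and Hist2h2aa2 (1825), which encode the same protein. The 76 bases around each of these summits occur at 2 places, so that reads there have no single position. The H3 gene Hist2h3b and the H2B gene Hist2h2bb followed with 1812, which was a single summit lying 986 bp after the start of Hist2h3b and 112 bp before that of Hist2h2bb. Hist1h2ac and Hist1h2bc also shared a summit, of 1760. The lowest were the H1 gene Hist1h1b (664), the H2B gene Hist3h2ba (737), the H2A gene Hist2h2ab (911) and the H4 genes Hist1h4j (1048) and Hist1h4k (1059). These ranks count summits that lie nearer to another member. With each summit given to the nearest member only, Hist1h2bl (315), Hist1h2ag (349), Hist1h2bn (421), Hist1h2ah (421) and Hist2h2be (495) were lower.

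By type the medians were 1309.5 for H1 (4 genes, 664 to 1543), 1543 for H2A (911 to 1955), 1543 for H2B (737 to 1812), 1530.5 for H3 (1200 to 1812) and 1456 for H4 (1048 to 1683). The ranges of all types overlapped. Neighbouring genes lie so close that the 59 members had 46 distinct best summits, and 25 members had theirs in common with another. When each summit was given only to the member with the nearest start site, 58 members kept a summit, and the medians by type changed for H2A, H2B and H3 (H1 1309.5, H2A 1468, H2B 1518, H3 1399.5, H4 1456). The score of Hist2h3b was then 1094 and that of Hist1h2ag 349.

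**Figure D2:**
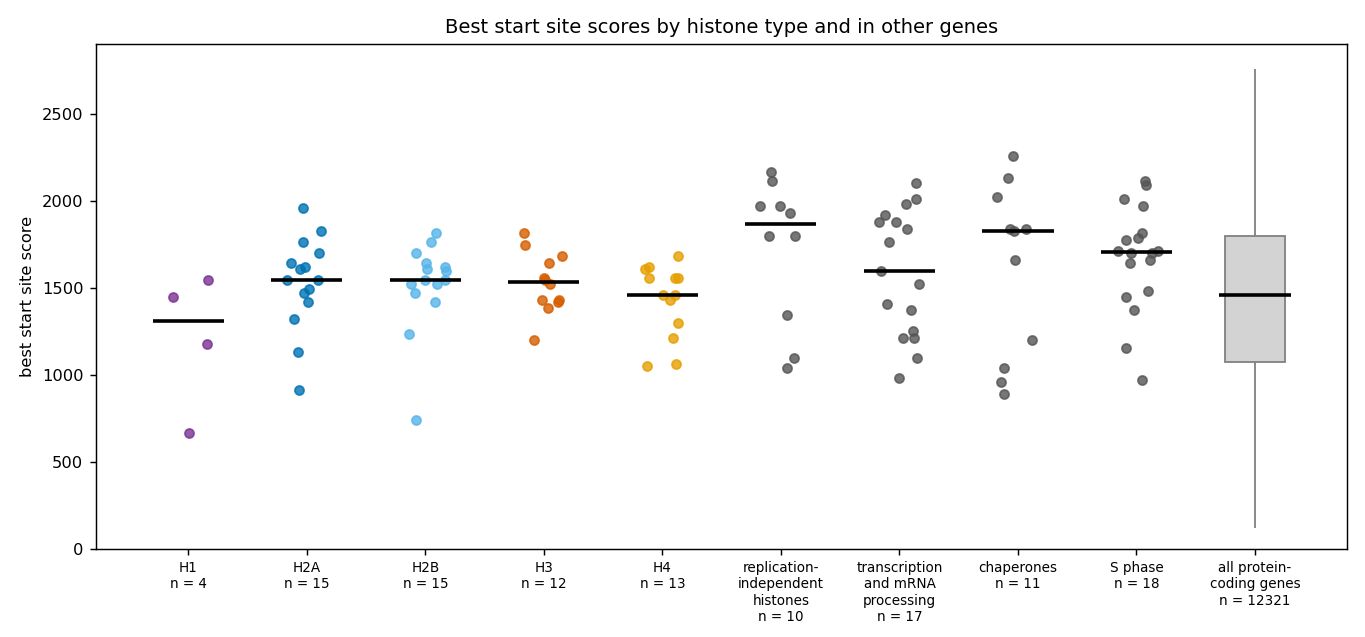
Best start site score (vertical axis) of the members by histone type, of 4 gene lists and of all protein-coding genes. Points are genes, black bars medians, the grey box the quartiles and the grey line the range of all protein-coding genes, and genes without a start site summit are not drawn. Replication-independent histones had a median of 1864, above the medians of all 5 types.

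Genes that encode one protein could be set side by side. All 13 H4 genes encode the same protein, and their scores ran from 1048 at Hist1h4j to 1683 at Hist1h4c, with a median of 1456. Of the 9 genes for one H2A protein 7 had a start site peak, with scores of 1320 (Hist1h2ab) to 1760 (Hist1h2ac). Several of these summits lay nearer to a divergent H2B gene, and the range was 349 (Hist1h2ag) to 1760 when each counted for the nearest member only. One H3 protein was encoded by 7 genes, from 1200 (Hist1h3c) to 1812 (Hist2h3b). With each summit given to the nearest member only, they ran from 1094 at Hist2h3b, now the lowest, to 1644 at Hist2h3c2. Another H3 protein was encoded by 4 genes, from 1431 (Hist1h3i) to 1747 (Hist1h3g), or from 1071 (Hist1h3h) with summits given to the nearest member. Hist1h2be, Hist1h2bg and Hist1h2bc encode one H2B protein and ranged from 1236 to 1760. The 1236 of Hist1h2be was read at the annotated start sites of its body of 37455 bp, and the best score around its start codon was 1543. Hist1h2bl, Hist1h2bn, Hist1h2bj and Hist1h2bf encode another H2B protein and had 1543 to 1696, with a median of 1593.5. By the nearest member only, Hist1h2bl had 315, Hist1h2bn 421, Hist1h2bj 1696 and Hist1h2bf no summit of its own. Genes for one protein thus had different scores, with no error to set these differences against. The 76 bases around the best summits of Hist1h4j, Hist1h2ab, Hist1h3c and Hist1h2bl occur at 6, 16, 6 and 12 places. Reads there have no single position. The same holds for the 1543 around the start codon of Hist1h2be (11 places) and the 349 of Hist1h2ag (12 places). The best summits of Hist1h4c, Hist1h2ac and Hist2h3b lay in stretches found once.

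The members lay in 7 clusters, separated wherever neighbours were more than 100000 bp apart. The 10 members at chr3:96219865-96270132 all had a start site peak and a median best score of 1663.5. On chromosome 13, 14 of 18 members had one at chr13:21715763-21837530 (median 1443.5), 5 of 5 at chr13:22035164-22043676 (median 1619), 27 of 29 at chr13:23531050-23764406 (median 1543) and 0 of 2 at chr13:23933773-23934851. Hist4h4 lay alone on chromosome 6 with a score of 1212, and Hist3h2ba and Hist3h2a on chromosome 11 had 737 and 1493.

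The density of reference peaks varied between the clusters. The 5 members at chr13:22035164-22043676 lay among 8.22 reference peaks per 10 kb, and the 10 on chromosome 3 among 4.18. The clusters of 29 and 18 members on chromosome 13 had 2.23 and 1.81. Hist4h4 alone had 6.99, and Hist3h2ba and Hist3h2a on chromosome 11 had 2.53. The genome had 0.311, but each span runs from the first to the last member and so holds closely spaced start sites. The cluster of Hist1h2ba and Hist1h2aa held 0 peaks. The 1487373 bp between the clusters that end with Hist1h2bj and begin with Hist1h4h (chr13:22043677-23531049) held 0.235 peaks per 10 kb. They contain 36 vomeronasal receptor genes, which serve pheromone sensing in the nose, and 0 of these had a start site peak. The other gaps between clusters of chromosome 13 held 1.47 (chr13:21837531-22035163) and 0.472 peaks per 10 kb (chr13:23764407-23933772).

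Start site peaks of members came in groups. Of the 59 members with one, 47 had 2 or more within 1000 bp, against 52.3% of the protein-coding genes with a start site peak. The peak with the best summit had a median width of 496 bp over the 59 members and of 465.5 bp over its 46 distinct peaks. Over the protein-coding genes with a best summit it was 356 bp, or 347 bp over distinct peaks. By type of member it was 589 bp for H2A, 591 bp for H2B, 393.5 bp for H3, 431 bp for H4 and 370 bp for H1. The H2A and H2B values are not independent, because in 9 divergent pairs 1 peak covered both start sites.

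A pair was counted as sharing a peak where 1 reference peak lay at most 1000 bp from start sites of both. This held for 23 pairs, 14 of them divergent, 8 on the same strand and 1 convergent. In 9 pairs a single peak covered both start sites, and all 9 were a divergent H2A and H2B gene 176 to 302 bp apart. The best scored was Hist1h2ac with Hist1h2bc, whose sequence is given above, with a peak of 785 bp at chr13:23683654-23684438. Hist1h2ag with Hist1h2bj had a score of 1696, Hist1h2bf with Hist1h2ad 1644, Hist1h2ae with Hist1h2bg 1619 and Hist1h2ah with Hist1h2bk 1606. Hist1h2ak with Hist1h2bn and Hist1h2bl with Hist1h2ai both had 1543, Hist2h2ac with Hist2h2be 1468 and Hist1h2an with Hist1h2bp 1418.

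Extended regions are the wider intervals of the deposited lists, which can hold several reference peaks. Of these regions 59612 equal the reference peaks widened by 700 bp on each side and joined where they then overlap, so that widening alone joins close neighbours. All 59 members with a start site peak had a start site in one, and 41 of them, or 69.5%, shared the region with another member. Among all protein-coding genes with a start site in an extended region, 23.2% shared it with another gene. Reference peaks that covered start sites of 2 or more members numbered 9. The joining regions numbered 18 and were 2202 to 5403 bp wide, with a median of 3146.5 bp. No region joined 4 or more members, and the largest number was 3. The widest, at chr13:22039701-22045103, held the start sites of Hist1h4i, Hist1h2ag and Hist1h2bj and 6 summits. Over all protein-coding genes 4 regions held 4 genes, the most found in a region.

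The position of the peaks was read for each type. Along the gene strand the best summit lay at a median of 107 bp before the start site in H2A genes and 108 bp before it in H2B genes. Divergent H2A and H2B genes often had the same best summit, so that these values are not independent. In H4 genes the median was 5 bp after the start site. The annotated start site was the start codon itself in 11 of 67 members. In H3 genes the median was 0 bp, but the distances ran from -906 to 989 bp, and the far ones were at Hist1h3h, Hist1h3f, Hist2h3b and Hist1h3a, whose best summit lay nearer to another member. In the 4 H1 genes with a summit they ran from -28 to 961 bp. Peaks covered a median of 74.7% of the coding span in H4 genes, 60.1% in H2A, 34.8% in H2B, 34.2% in H3 and 26.4% in H1. The stop codon lay in a peak in 5 of 13 H4, 6 of 18 H2A, 4 of 18 H2B and 1 of 6 H1 genes, and in 0 of 12 H3 genes. Coding spans of the members are similar to each other: a median of 66.7% of their length lay in 76 base stretches found more than once, and 8 of the 59 best summits did, against 1.07% of all summits. Its part in the cover of coding spans was not tested.

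**Figure D3:**
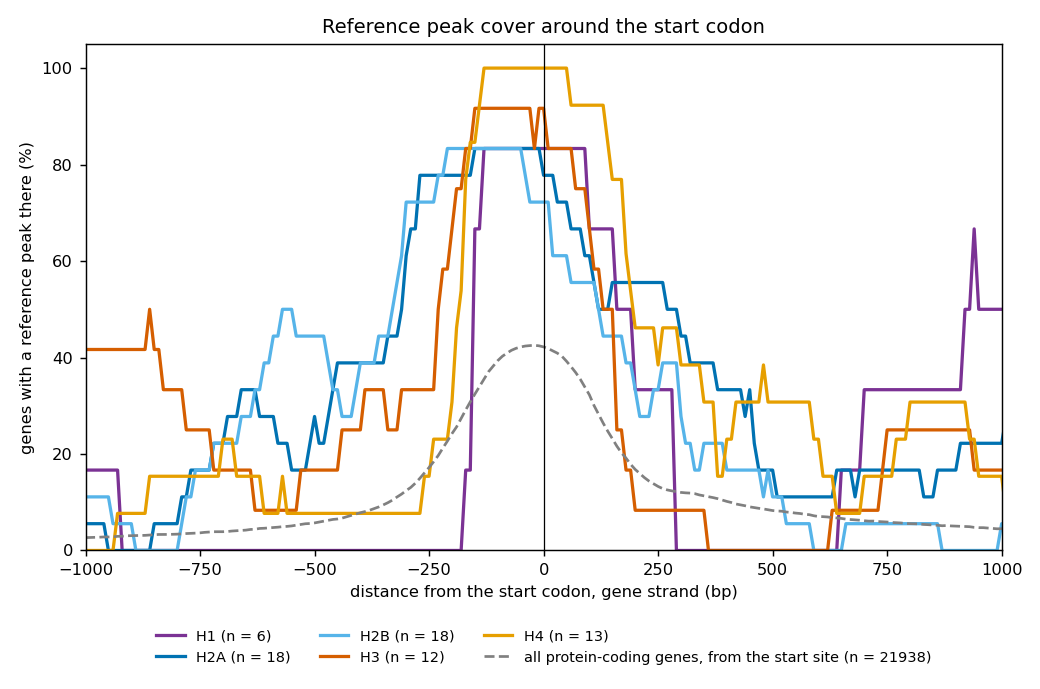
Share of genes with a reference peak (vertical axis, percent) at each distance from the start codon along the gene strand (horizontal axis, bp) for each histone type. The dashed line is all protein-coding genes around their start site. H4 genes reached 100% and fell off on the downstream side later than H3 genes, of which 8.33% were covered 200 bp after the start codon.

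The promoters of the types differed in letters. CCAAT or its reverse complement stood in 56 of 67 promoters of 300 bp, against 39.0% of all protein-coding promoters. It was found in 18 of 18 H2A, 18 of 18 H2B, 11 of 12 H3 and 5 of 6 H1 promoters, but in 4 of 13 H4 promoters. TATAAA stood in 37 promoters (55.2%, against 12.6%), and within 100 bp of the best summit at 20 members. CGGAC stood in 13 of 13 H4, 9 of 18 H2B, 6 of 18 H2A, 2 of 12 H3 and 0 of 6 H1 promoters. These promoters run 50 bp past the start site and can hold coding sequence. Over a longer stretch before the start codon, CGGAC lay in 2 of 18 H2B and 14 of 18 H2A genes. The share of promoters with CGGAC was 26.4% of all protein-coding promoters and 35.8% of those with a start site peak. Within 100 bp of the best summit it was found at 18 members, in place of 30 in the promoters. The octamer was found in 7 H2A and 8 H2B promoters and in none of the other types, against 1.57%. AAACACA was found in 4 of 6 H1, 3 of 18 H2B, 1 of 18 H2A, 1 of 12 H3 and 0 of 13 H4 promoters, against 6.40%, and within 100 bp of the best summit at 1 member in place of 9. GGGCGG, the letters of SP and KLF factors, stood in 41.8% of the members' promoters, in 43.0% of all and in 59.2% of those with a start site peak, and TGACGTCA (bound by CREB and ATF factors) in 4 members, against 2.43%. Both strands were searched, the promoters of a divergent pair overlap, and a match of letters is no evidence of binding.

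Some letters lay in a narrow range of distances from the start codon. The stretch searched here was longer than the promoters above, so that the counts differ. In the 13 H4 genes the CGGAC nearest to the start codon began 54 to 116 bp before it, with a median of 79 bp. In the H1 genes AAACACA began 154 to 188 bp before it, and was found in 5 of 6, against 4 of 6 in the promoters. In H2A genes the nearest CCAAT began 91 to 130 bp before the start codon. Over both strands, other letters were spread more widely. The nearest TATAAA began 68 to 398 bp before the start codon in H2B genes. It stood on the gene strand at -94 to -68 bp in Hist1h2ba, Hist1h2bg, Hist1h2bb and Hist3h2ba. In the others it lay on the opposite strand, at -398 to -226 bp. Except at Hist1h2bh, this is the strand of a divergent H2A gene. In H2A genes CGGAC began 93 to 356 bp before the start codon, with a median of 309.5 bp. Only Hist2h2aa1 and Hist2h2aa2 had the 93 bp. Whether these letters belong to the neighbouring gene was not tested. Among the germ cell genes, Hist1h1t carried the H1 box and CCAAT letters but not the exact letters TATAAA. Only this form of the box was searched, and the sequence of Hist1h1t above holds tatataag before the start site. The stretch between Hist1h2ba and Hist1h2aa held the letters of all motifs marked in it, as the sequences above show.

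**Figure D4:**
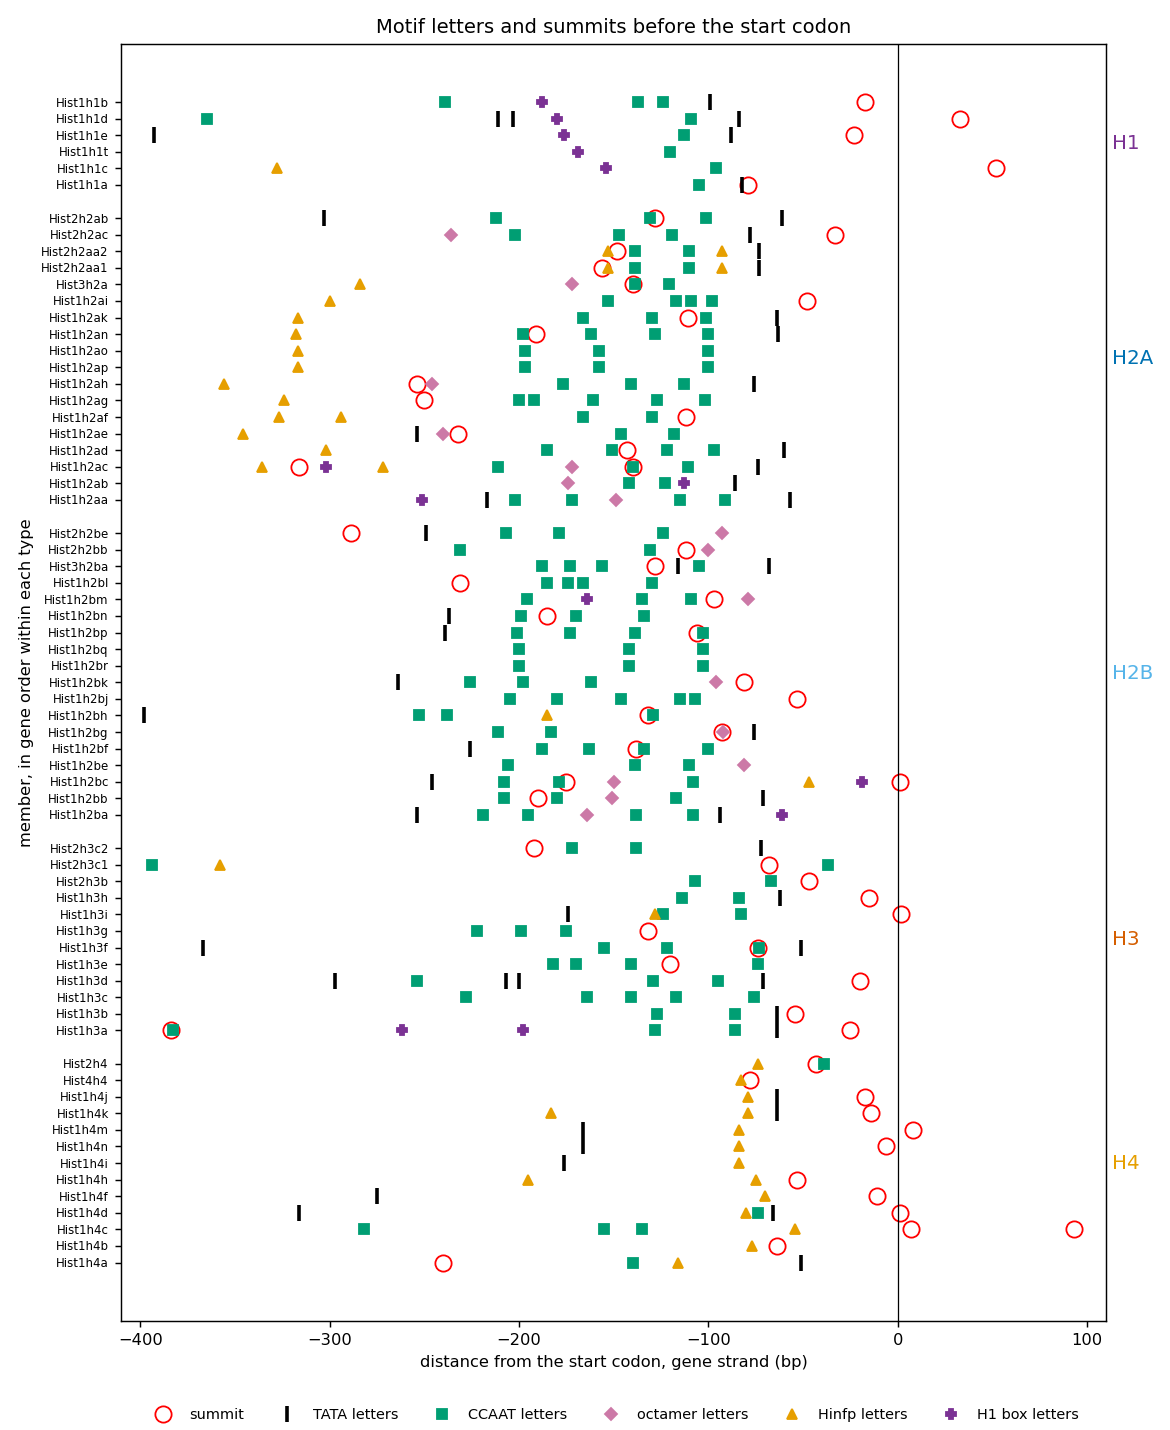
Motif letters and summits (red circles) before the start codon of each member, grouped by type. The horizontal axis is the distance from the start codon along the gene strand (bp, leftmost base of a motif on that strand), and rows are members in gene order. CGGAC (Hinfp letters) lines up in the 13 H4 genes, and CCAAT lies in several copies before H2A and H2B genes.

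The stem-loop was searched in the 200 bp after the stop codon as a stem of 6 bases around a loop of 4, and was found in 62 of 67 members. Its first base lay 22 to 59 bp after the stop codon, with a median of 32 bp. The sequences are printed because they separate H4 from the other types, with the stem in capitals. The leading forms, with the types and number of members that hold them, were as follows.
H1, H2A, H2B and H3, 38 members: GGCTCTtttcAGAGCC
H1, H2A, H2B and H3, 9 members: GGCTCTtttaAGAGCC
H4, 8 members: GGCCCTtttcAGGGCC
H4, 2 members (Hist2h4 and Hist1h4i): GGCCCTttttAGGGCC
H4, 2 members (Hist1h4j and Hist1h4b): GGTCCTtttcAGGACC
Hist1h4a, Hist1h3g and Hist2h2ac each had a further form. The 5 members without a match were Hist2h2be, Hist1h2an, Hist1h2bp, Hist1h2bq and Hist1h2br, of which Hist1h2bp, Hist1h2bq and Hist1h2br are annotated with 2 coding exons. The stem-loop lay in a reference peak in 15 of 62 members, namely 7 H2A, 5 H4, 2 H2B and 1 H1, and in 0 H3 genes.

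Genes that serve the histone clusters were read as a list. All 17 genes of histone gene transcription and mRNA processing had a start site peak, against 56.5% of all protein-coding genes, with scores of 979 (Ncbp1, of the cap binding complex) to 2100 (Hinfp). Npat had 1982, Casp8ap2, another component of the histone locus body, 1916, and Slbp 1877, while Pou2f1 had 1518. All 11 histone chaperones (889 for Nasp to 2258 for Asf1b) and all 18 genes of DNA replication and S phase (968 for Tyms to 2114 for Mcm4) had one too.

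Histones outside the clusters were read in the same way. Of 11 histone genes listed as replication-independent, 10 had a start site peak, from 1036 (H1fx) to 2166 (H2afz), and H2afy2 had none. H3f3a, encoding the variant H3.3, had 1969. Of 6 matched germ cell histones outside the clusters, 1 had a start site peak (H1foo, with 1345), and H2al2a, Hils1, H1fnt, H2afb1 and H2bfm had none.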

How the data were processed

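ATAC-seq libraries (18, in 9 groups of 2) had been trimmed by the authors with Trimmomatic 0.39, aligned to mm10 with the mapping steps of ShortStack, filtered with SAMtools 1.9 and used for peak calling with MACS2 2.2.6, duplicates kept. Reads of 76 bases were kept down to 38 bases. The deposited lists hold positions and, for summits, a score whose scale is not stated. They pool all libraries, 0 columns belong to other samples, and the depth and precision per library are unknown. Positions are counted from 1.

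Start sites came from every transcript of a protein-coding gene on chromosomes 1 to 19, X and Y. Overlap of at least 1 bp was computed with Python 3.11.15, numpy 2.4.6 and pandas 2.3.3, and repeated stretches with numba 0.67.0. The overlap and repeat searches were tested on simulated data. RefSeq promoter entries matched 61 members within 200 bp, and sequences were read from the RefSeq genome. Named genes were the members without a start site peak, the highest and lowest scores of all, per type and per protein, the best shared peaks, the germ cell members and the ends of each list. The members and the 11 lists of other genes were chosen with earlier results of these data known. Alternatives were other windows, start sites, summits and overlaps.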

Additional observations from a re-analysis of the deposited data

How the results depend on the processing

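The number of members with a start site peak, 59, was between 58 and 65 under the 7 alternatives that kept all members, and 52 with the 56 members of unrepeated promoter. The alternatives with start codons, nearest genes, unrepeated promoters and without germ cell members were added after seeing the data. The number of protein-coding genes with a start site peak, 12402, was between 11113 and 13141 under 5 alternatives. The median best score of the members moved from 1543 to 1437 when each summit was given to the nearest member only. It was 1493 with a window of 500 bp and 1518 with summits whose 76 bases occur once, and 1543 otherwise. The median of protein-coding genes, 1456, moved to 1406 with the nearest gene only and to 1431 with the most upstream start site only. It was 1531 with summits at or above the median score and 1443 with a window of 500 bp. With a peak over at least 50% of the gene body, 19 members and 56 protein-coding genes were left of 59 and 13938. Reference peaks in place of extended regions joined the start sites of 2 or more members 9 times in place of 18, and 9 of 23 pairs had 1 peak over both start sites. The median share of repeated coding span was 80.2% with 38 base stretches in place of 66.7%. Within 100 bp of the best summit, TATAAA was found at 20 members in place of 37, CGGAC at 18 in place of 30 and AAACACA at 1 in place of 9. No paired analysis was possible because the lists carry no column for a library, and no replicate could be left out for the same reason.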
